A study of Rattus norvegicus with 10 samples.

Results

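Kinesins and cytoplasmic dynein are the motor proteins that move cargo along microtubules. Most kinesins walk towards the plus ends of microtubules, which in axons point away from the cell body, and so carry vesicle precursors and mitochondria outwards. Cytoplasmic dynein walks to the minus ends and brings endosomes and signals back, and it needs dynactin, a cofactor complex, to bind cargo and move over long distances. In hippocampal neurons both directions of transport supply synapses with material made in the cell body, while other kinesins serve cilia or the mitotic spindle.

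The genes described here are the rows of the count table whose symbols begin as kinesin family, kinesin light chain, cytoplasmic dynein, dynein light chain or dynactin genes. They were chosen by symbol alone, and 54 of 17168 rows matched: 35 kinesin genes, 13 dynein genes and 6 dynactin genes. Of these, 50 passed the filter on low counts and were tested. The 4 that did not were Kif12, Kif18b, Kif2b and Kif2c, and Kif2b had no count in any library. The kinesin genes Kif1a, Kif21a, Kif17 and Klc2 were not analysed here.

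Left hippocampi of male TgF-344AD transgenic rats, all 11 months old, gave the RNA. These Fischer rats are a model of Alzheimer's disease that carries human transgenes driven by a prion promoter, and every rat in both groups was transgenic. The 5 untreated rats ate rodent chow, and the 5 ibudilast rats ate chow with ibudilast, an inhibitor of cyclic nucleotide phosphodiesterases, for 6 months from 5 months of age. Neither a dose nor a wild-type group is given in the labels. The ibudilast tissue alone had been kept in a frozen-tissue transition solution (RNAlater-ICE), so treatment and storage cannot be told apart in any comparison.

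Libraries held 14806807 to 18533520 counts. Values are CPM, counts relative to the library size, scaled by TMM factors, a correction for libraries of differing composition, and SDs are over the 5 rats of a group. Calls rest on edgeR's quasi-likelihood test, with p adjusted over all genes tested and a threshold of 0.05. Neuronal markers were abundant in all libraries: the 12 excitatory neuron markers in the table summed to 5258 to 8218 CPM in untreated and 1564 to 6235 CPM in ibudilast rats. In such lists 4 libraries stood apart. The choroid plexus list reached 8515 CPM in untreated replicate 2 and 7683 CPM in ibudilast replicate 1, while none of the other 8 libraries exceeded 393 CPM. Untreated replicate 3 had the highest microglial and endothelial sums (1255 and 1053 CPM), and ibudilast replicate 4 had the lowest excitatory sum. Not all markers were low in ibudilast replicate 4. Slc17a6 of the excitatory list was at 132 CPM there and at most 17.5 CPM in any other rat, and its mural sum (491 CPM) was the highest.

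Motor genes went in both directions. With ibudilast 6 of the 50 tested rose, 13 fell and 31 did not pass, so 38.0% changed, against 47.1% of all 12355 genes tested. The share that rose or fell over all genes was 24.3% and 22.8%. A smaller share of motor genes than of all genes was thus called. Among kinesins 6 rose, 7 fell and 18 did not pass. No dynein gene rose, 4 fell and 9 did not pass, and of dynactin genes 2 fell and 4 did not pass. The median log2 fold change was −0.19 for kinesin, −0.11 for dynein and −0.03 for dynactin genes, beside 0.02 for all genes tested. Scaled by library size alone, dynein had 1 gene higher and 3 lower, and dynactin 1 higher and 2 lower. The dynein count depended on single rats: 2 genes changed without untreated replicate 5, 7 without untreated replicate 3 (1 higher) and 8 without the 4 libraries that stood apart (2 higher). With a replicate block 2 dynein genes changed. One member changed by at least 2-fold, Kif20a.

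**Figure D1:**
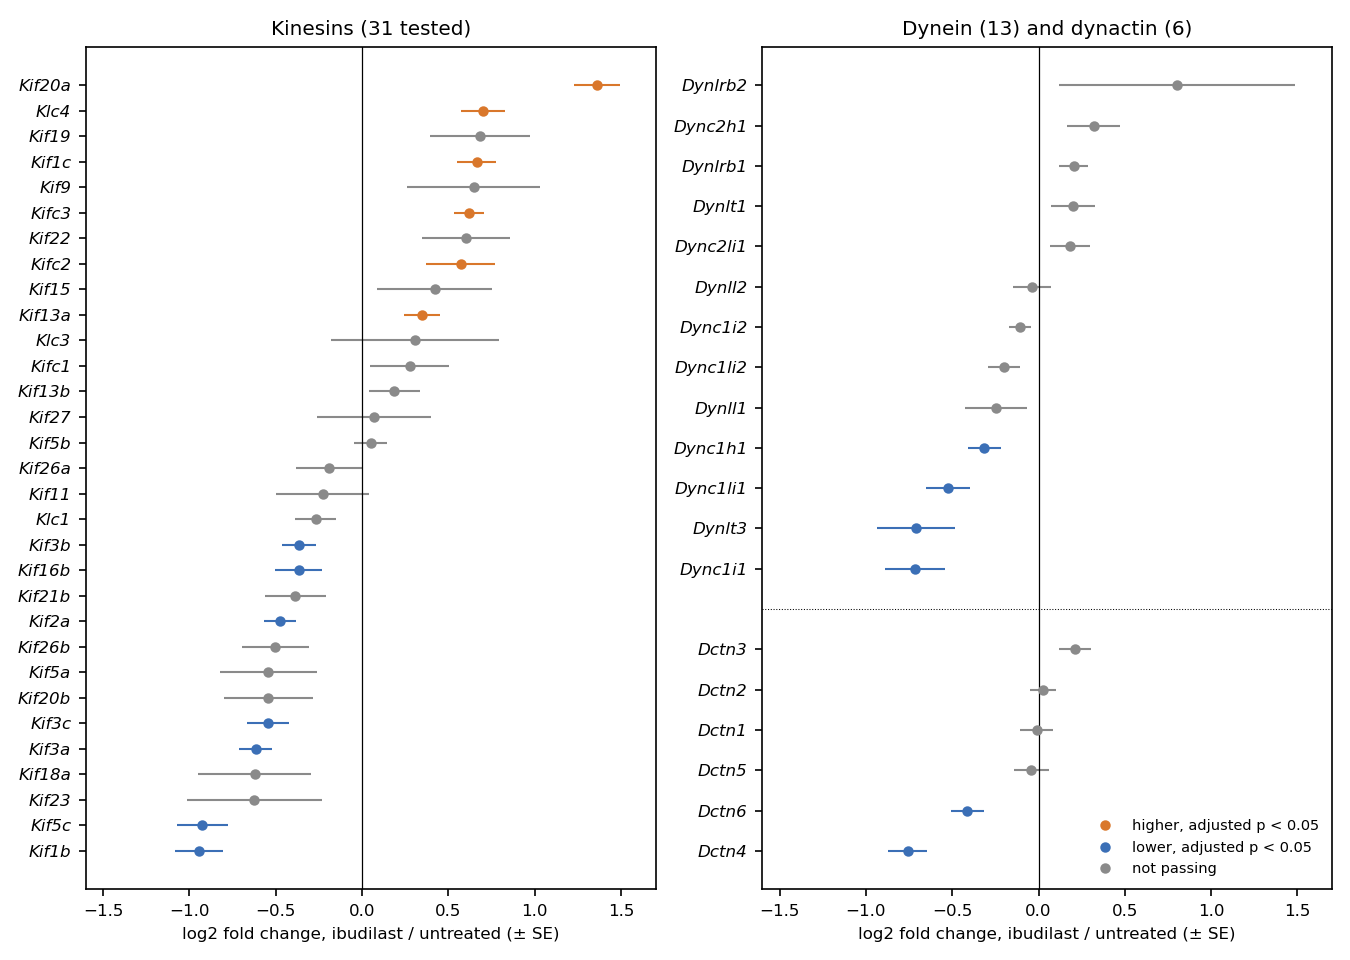
Log2 fold change (ibudilast over untreated, horizontal axis) of the 50 tested motor genes with its standard error, kinesins on the left, dynein and, under the dotted line, dynactin genes on the right. Orange points rose and blue points fell at an adjusted p under 0.05 by edgeR, and grey points did not pass; Kif20a lies farthest to the right and Kif1b farthest to the left.

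Kinesin-1, the conventional kinesin, is a pair of heavy chains with light chains that bind cargo. Its heavy chain genes Kif5a and Kif5c are enriched in neurons, while Kif5b is expressed in most cells. Kif5c fell to 52.6% of its untreated mean and Kif5b did not pass. Kif5c was at 594, 442, 743, 619.9 and 551 CPM in untreated replicates 1 to 5 and at 314, 364, 308, 241 and 324 CPM in ibudilast replicates 1 to 5. The highest ibudilast rat was below the lowest untreated rat, with a log2 fold change of −0.93 ± 0.15 (SE, adjusted p = 0.000589). In this way 11 of the 50 motor genes had groups that did not overlap, as did 33.4% of all genes tested. Kif5b was at 244, 259, 289.9, 332 and 308 CPM in untreated and 321, 289.9, 274, 304 and 293 CPM in ibudilast rats, with group ranges that overlapped (log2 fold change 0.05 ± 0.09, adjusted p = 0.701). Its sign turned without untreated replicate 1 or 2 and without the 4 libraries that stood apart. Kif5a, whose mutations cause motor neuron disease and spastic paraplegia in people, was at 1092, 803, 2540.0, 1488 and 1315 CPM in untreated and 838, 1299, 1120.0, 779.5 and 932 CPM in ibudilast rats. Untreated replicate 3 held far more than any other rat, the groups overlapped and the gene did not pass (log2 fold change −0.54, adjusted p = 0.137). Without untreated replicate 2, Kif5a passed (log2 fold change −0.72, adjusted p = 0.0402).

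The ratio of Kif5c to Kif5b, taken within each library so that scaling cancels, fell from 1.03 ± 0.27 to 0.06 ± 0.25 on the log2 scale (SD, n = 5, exact permutation test, two-sided, p = 0.00794, adjusted p = 0.0357 over 9 ratios). The groups did not overlap, and this p is the smallest that the design allows. The ratio of Kif5a to Kif5b was 2.23 ± 0.55 and 1.72 ± 0.37 and did not pass (exact permutation test, adjusted p = 0.131). In bulk tissue, fewer cells of a type and less RNA per cell cannot be told apart. The 10 pan-neuronal markers summed to 5773 to 7611 CPM in untreated and 3283 to 4835 CPM in ibudilast rats, ranges that did not overlap, with 5 of 10 lower, 0 higher and none at 0. Among these 10, mean Snap25 went from 2192 to 1205 CPM and mean Map2 from 1234 to 322 CPM. The 5 genes that did not pass include Uchl1 (means 1012 and 1027 CPM) and Nefm (266 and 290 CPM). The gap between the sums leans on Map2, which was highest (1733 CPM) in untreated replicate 3, the rat with the lowest untreated sum. Among 12 excitatory neuron markers 4 fell, 0 rose and 8 did not pass, with a median log2 fold change of −0.82. Among 13 inhibitory neuron markers 4 fell and 1 rose. The inhibitory sums overlapped, at 607 to 935 CPM in untreated and 617 to 815 CPM in ibudilast rats. Of other lists, 4 of 11 astrocyte, 7 of 13 microglial, 6 of 12 endothelial and 3 of 10 mural markers also fell and 0 rose. Among 9 oligodendrocyte precursor markers 2 fell and 2 rose. The part of any of these cells in the fall of Kif5c, or of any other motor gene that fell, was not tested.

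The promoters of these paralogues are shown because the pair moved apart and because cAMP, the messenger whose breakdown ibudilast slows, acts on transcription through the cAMP response element (CRE). The windows run from 250 bases before to 50 bases after the gene start, as RefSeq gives them on the GRCr8 build, which is not the build of the count table. Capitals mark matches on either strand to the CRE (TGACGTCA), its half-site (TGACG, contained in the CRE), the GC box (GGGCGG) or the X-box half-site bound by RFX factors of ciliary genes (GTTGCC). Kif5c lies at chr3:54441057-54441356 (plus strand), with 1 CRE and 1 GC box, and Kif5b at chr17:56185136-56185435 (plus strand), with 3 overlapping GC box matches and no CRE.
Kif5c: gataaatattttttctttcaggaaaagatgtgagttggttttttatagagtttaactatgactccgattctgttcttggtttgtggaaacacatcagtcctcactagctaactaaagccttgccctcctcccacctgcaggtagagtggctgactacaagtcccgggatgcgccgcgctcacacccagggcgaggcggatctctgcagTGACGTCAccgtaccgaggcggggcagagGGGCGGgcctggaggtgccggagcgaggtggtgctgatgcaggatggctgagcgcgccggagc
Kif5b: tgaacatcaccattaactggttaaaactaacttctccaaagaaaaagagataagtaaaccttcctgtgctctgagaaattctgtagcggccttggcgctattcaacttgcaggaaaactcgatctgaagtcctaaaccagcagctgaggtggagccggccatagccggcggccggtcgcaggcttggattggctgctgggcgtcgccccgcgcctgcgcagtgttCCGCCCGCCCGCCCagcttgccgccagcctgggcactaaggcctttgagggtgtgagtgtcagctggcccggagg
A window was found for 41 of the 54 members. The CRE was in 5 of these 41 (Kif5c, Klc1, Dctn3, Kif15 and Kif18a), or 12.2%, against 1.83% of all 33469 windows and 3.17% of the 9680 windows of tested genes. Of those 5 genes Kif5c fell and the others did not pass. The half-site was in 34.1% of members and 31.1% of windows of tested genes, and the GC box in 73.2% and 61.3%. Members were counted once each, with 3 of the 41 not tested, while the other shares count windows. The units thus differ, and the shares were not compared by a test. A match describes letters only and is not evidence of binding.

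Kinesin light chains link the heavy chains to cargo. Klc4 rose, and Klc1 and Klc3 did not pass. Klc4 was at 25.9, 33.9, 38.6, 33.0 and 27.5 CPM in untreated and 50.8, 48.9, 46.5, 63.7 and 48.5 CPM in ibudilast rats, a rise of 0.70 ± 0.12 on the log2 scale (adjusted p = 0.00111) with no overlap. Klc1, a main neuronal light chain, was at 877, 706, 899, 911 and 831 CPM in untreated and 600.5, 769, 803, 595 and 739 CPM in ibudilast rats, with overlap (log2 fold change −0.27 ± 0.12, adjusted p = 0.0821). It passed by DESeq2 and without untreated replicate 2. Klc3, at 1.35 ± 1.18 and 1.68 ± 0.657 CPM, did not pass (adjusted p = 0.638), and its untreated values ranged from 0.625 to 3.42 CPM, highest in replicate 2. Without that rat it passed (log2 fold change 1.00, adjusted p = 0.0360).

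**Figure D2:**
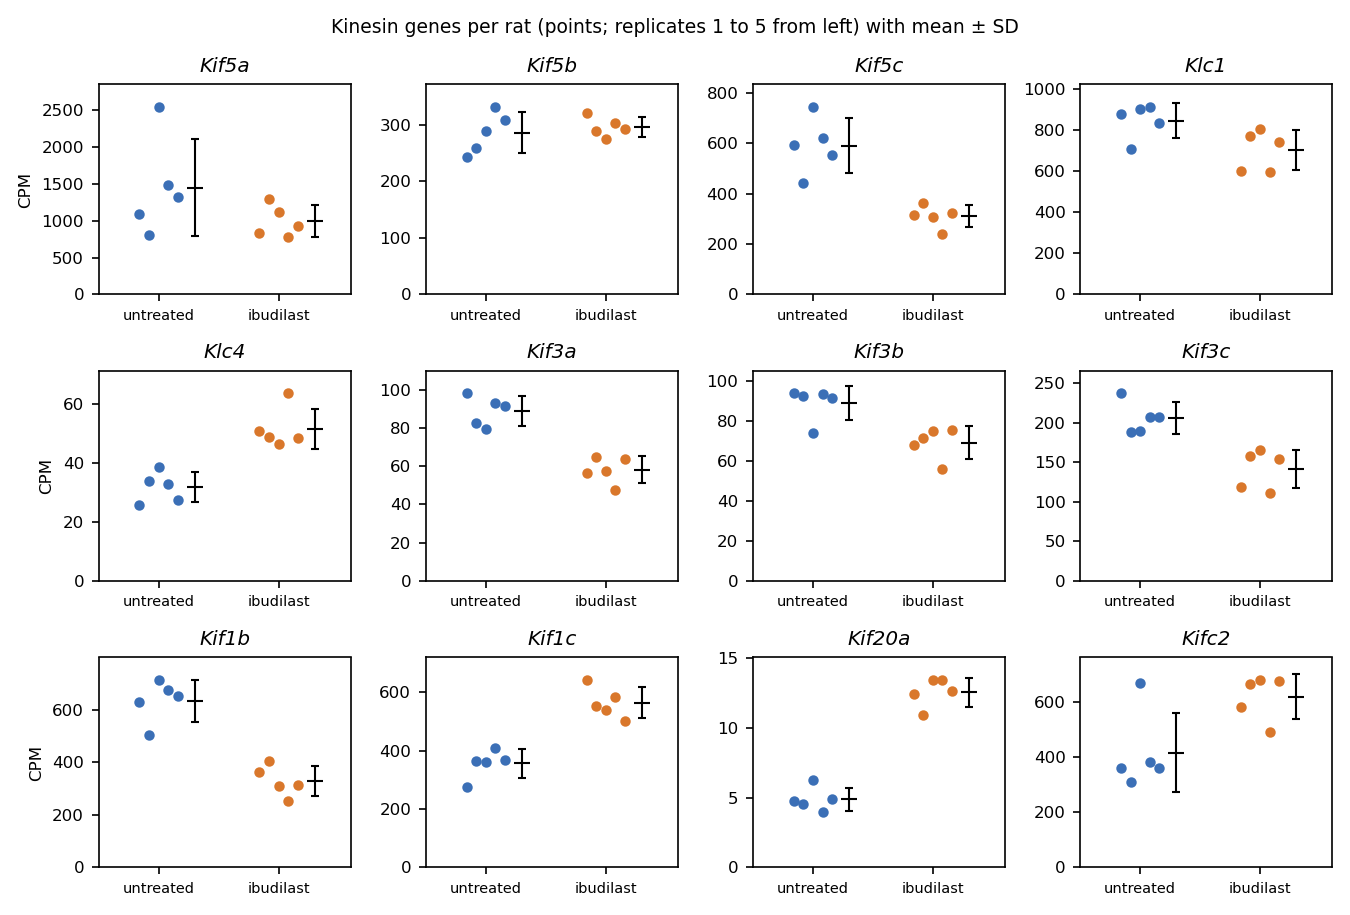
CPM (vertical axis, from 0) of 12 kinesin genes in each rat, untreated in blue and ibudilast in orange, with the group mean and SD in black. Kif5c, Kif3a, Kif3c and Kif1b lie lower with ibudilast without overlap and Klc4, Kif1c and Kif20a higher without overlap, while Kif5a and Kifc2 each have 1 high untreated rat, replicate 3.

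All 3 kinesin-2 genes analysed here fell, while Kif17, which also belongs to this subfamily, was not analysed. The kinesin-2 described here is built from Kif3a paired with Kif3b or, mainly in neurons, Kif3c. It carries axonal vesicles and drives outward transport in cilia. Kif3a went from 98.0, 82.4, 79.4, 93.2 and 91.7 CPM in untreated to 56.4, 64.9, 57.4, 47.4 and 64.0 CPM in ibudilast rats, a fall of 0.62 ± 0.10 on the log2 scale (adjusted p = 0.000548). Every ibudilast rat was below every untreated rat. Kif3c was at 237, 188, 189, 208 and 207 CPM in untreated and 118, 157, 165, 112 and 154 CPM in ibudilast rats and also did not overlap (log2 fold change −0.54 ± 0.12, adjusted p = 0.00430). Kif3b was at 93.6, 92.5, 74.0, 93.3 and 91.4 CPM in untreated and 67.9, 71.4, 75.0, 55.6 and 75.5 CPM in ibudilast rats. Its groups overlapped only through untreated replicate 3, which fell among the ibudilast values (log2 fold change −0.37 ± 0.10, adjusted p = 0.0112). The ratio of Kif3a to Kif3b went from 0.00 ± 0.10 to −0.25 ± 0.09 (log2, SD, n = 5, exact permutation test, two-sided, p = 0.0159, adjusted p = 0.0357), so the partners did not fall equally. That call was lost without untreated replicate 1, 4 or 5 or ibudilast replicate 1, 3, 4 or 5 (exact permutation test, adjusted p = 0.0536 in each). Kifap3, the adaptor that completes the kinesin-2 complex, fell too, from 285 ± 37.5 to 202 ± 37.8 CPM (a log2 difference of −0.50, adjusted p = 0.0145).

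Kinesin-3 motors carry vesicles over long distances, and this family split. Kif1b, whose products carry synaptic vesicle precursors and mitochondria, had the largest fall of the 50 tested motor genes. It was at 628, 504, 712, 676 and 649.9 CPM in untreated and 364, 406, 309, 253 and 313 CPM in ibudilast rats, or 51.9% of the untreated mean. The groups did not overlap (log2 fold change −0.95 ± 0.14, adjusted p = 0.000362). Its relative Kif1c, a widely expressed carrier of dense-core vesicles and integrins, moved the other way, from 276, 365, 359.6, 410.5 and 369 CPM in untreated to 642, 553, 539, 585 and 501 CPM in ibudilast rats. Every ibudilast rat was above every untreated rat (log2 fold change 0.66 ± 0.11, adjusted p = 0.000883).

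Kif13a, a motor of recycling endosomes, rose from 53.3 ± 5.25 to 67.8 ± 9.32 CPM (a difference of 0.35 in log2, adjusted p = 0.0204) with overlapping groups. Its highest values were in ibudilast replicates 1 and 4, and the call was lost without ibudilast replicate 4 (0.29, adjusted p = 0.0594), with a replicate block (0.34, adjusted p = 0.0619) and when the 4 libraries that stood apart were left out (0.23, adjusted p = 0.0978). Kif16b, which moves early endosomes, fell from 17.1 ± 2.89 to 13.2 ± 1.85 CPM (a difference of −0.37 in log2, adjusted p = 0.0463). This was the weakest call among the members, lost in 11 of 21 alternatives, among them 7 of the 10 that left out a single rat: untreated replicates 1, 2, 3 and 4 and ibudilast replicates 2, 3 and 5 (adjusted p from 0.0524 to 0.103). Kif13b, at 31.7 ± 5.43 and 36.1 ± 6.54 CPM, did not pass (adjusted p = 0.331). Oligodendrocyte markers were higher in every ibudilast rat: the 21 in the table summed to 8458 to 16380.0 CPM in untreated and 17000.0 to 20670.0 CPM in ibudilast rats, with 11 higher, 0 lower and none at 0. The part of these cells in the rises of Kif1c, Kif13a, Kifc3 and Klc4 was not tested.

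The kinesin-14 genes, whose products walk to minus ends, rose in 2 of 3 cases. Kifc3 was at 65.6, 63.0, 78.8, 63.3 and 73.8 CPM in untreated and 98.8, 103, 102, 123 and 102 CPM in ibudilast rats, without overlap (log2 fold change 0.62 ± 0.09, adjusted p = 0.000296). Kifc2, a neuronal member, was at 360.4, 310.2, 665, 382 and 359 CPM in untreated and 578, 665, 678, 491 and 675 CPM in ibudilast rats. Untreated replicate 3 sat among the ibudilast values, and the other 4 untreated rats lay below all of them (log2 fold change 0.57 ± 0.20, adjusted p = 0.0362). Without untreated replicate 3 the difference was 0.87 (adjusted p = 7.25e-06). Leaving out any other rat but ibudilast replicate 4 lost the call (untreated replicates 1, 2, 4 and 5 and ibudilast replicates 1, 2, 3 and 5, adjusted p from 0.0517 to 0.0894). Kifc1, a spindle motor, was at 1.55 ± 0.266 and 1.88 ± 0.468 CPM and did not pass (adjusted p = 0.346).

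Kif2a, a kinesin-13 that takes microtubules apart and trims axon branches, fell. It was at 133, 114, 103, 127 and 124 CPM in untreated and 88.4, 89.1, 93.8, 70.8 and 90.3 CPM in ibudilast rats, without overlap (log2 fold change −0.48 ± 0.09, adjusted p = 0.00210). Kif21b, a neuronal kinesin-4 that regulates microtubule growth in dendrites, was at 94.7, 70.0, 131, 88.7 and 86.7 CPM in untreated and 75.7, 88.6, 73.8, 51.6 and 71.0 CPM in ibudilast rats and did not pass (log2 fold change −0.39, adjusted p = 0.0928). Without untreated replicate 2, its lowest untreated rat, it passed (−0.50, adjusted p = 0.0330). The non-motile kinesin-11 genes Kif26a and Kif26b were at −0.19 (adjusted p = 0.459) and −0.50 (adjusted p = 0.0531) on the log2 scale. Kif26b was at 19.4, 19.0, 8.49, 17.3 and 17.6 CPM in untreated and 12.4, 11.1, 12.1, 11.5 and 10.6 CPM in ibudilast rats, so that untreated replicate 3 alone lay below the ibudilast range. It passed without that rat (−0.69, adjusted p = 9.74e-05), by DESeq2, with RLE factors, with no low-count filter and without the 4 libraries that stood apart.

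Kif20a, a motor of cytokinesis, had the largest rise of the set. It was at 4.75, 4.53, 6.24, 3.97 and 4.89 CPM in untreated and 12.4, 10.9, 13.4, 13.4 and 12.6 CPM in ibudilast rats. The rise of 1.36 ± 0.13 on the log2 scale (adjusted p = 3.63e-05) held in every rat and in all 21 alternatives. None of the 7 other mitotic kinesins tested passed (Kif20b, Kif23, Kif11, Kif15, Kif18a, Kif22 and Kifc1, log2 fold changes from −0.62 to 0.60). Kif15 passed without untreated replicate 3 (0.76, adjusted p = 0.0334) and Kif20b without ibudilast replicate 5 (−0.76, adjusted p = 0.0307). All 7 had group means of at most 1.88 CPM. Of 13 tested proliferation genes 3 rose, 1 fell and 9 did not pass. Aurka, a mitotic kinase, rose by 0.74 (adjusted p = 0.000198). Plk1, another, was at 1.00 ± 0.202 and 2.70 ± 0.515 CPM (log2 fold change 1.43, adjusted p = 0.000396). Mki67, the usual marker of dividing cells, was at 4.85 ± 1.18 and 6.33 ± 1.95 CPM (adjusted p = 0.239), and Ccnb1, a mitotic cyclin, fell by 0.88 on the log2 scale. In the RefSeq annotation of GRCr8, Kif20a overlaps Cdc23, a subunit of the anaphase-promoting complex. Cdc23 was at 39.2 ± 0.573 and 46.0 ± 1.25 CPM (log2 fold change 0.23, adjusted p = 0.00326). Whether strand was used in counting is not given in the sources used here, so reads of the 2 genes may not be told apart. Of the other called members, Dctn4, Kif2a and Kifc2 also overlap a gene of the table (Smim3, Dimt1 and Foxh1).

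Dynein-1, the dynein of axonal transport, is a pair of heavy chains, the motors, with intermediate, light intermediate and light chains. Its heavy chain gene fell, with 1 intermediate, 1 light intermediate and 1 light chain gene. Dync1h1, the heavy chain, was at 867, 846, 691, 828 and 913 CPM in untreated and 608, 728, 684, 648 and 665 CPM in ibudilast rats. Untreated replicate 3 was the lowest of its group and alone lay within the ibudilast range (log2 fold change −0.31 ± 0.10, adjusted p = 0.0191). The call was lost without untreated replicate 5 (−0.28, adjusted p = 0.0517), with library size alone (−0.25, adjusted p = 0.0616) and with a replicate block (adjusted p = 0.0707).

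Intermediate chains connect the heavy chain to dynactin. Dync1i1, which is enriched in neurons, fell the most of the dynein genes. It was at 199.8, 175, 108, 168 and 193 CPM in untreated and 81.1, 108, 122, 85.5 and 116 CPM in ibudilast rats, again with untreated replicate 3 within the ibudilast range (log2 fold change −0.72 ± 0.17, adjusted p = 0.00640). Dync1i2, its widely expressed paralogue, was at 134, 120.4, 123, 139.6 and 138 CPM in untreated and 124, 117, 123, 118 and 126 CPM in ibudilast rats and did not pass (log2 fold change −0.11 ± 0.06, adjusted p = 0.181). It passed without untreated replicate 3 and without the 4 libraries that stood apart. Their ratio went from 0.33 ± 0.31 to −0.26 ± 0.26 (log2, SD, n = 5). It did not pass after adjustment (exact permutation test, two-sided, p = 0.0318, adjusted p = 0.0571), and it did without untreated replicate 3 (−0.73, exact permutation test, adjusted p = 0.0238).

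Light intermediate chains bind the activating adaptors. Dync1li1 was at 61.0, 51.0, 36.8, 49.4 and 55.8 CPM in untreated and 29.8, 36.0, 37.6, 36.3 and 36.9 CPM in ibudilast rats, a fall of 0.52 ± 0.13 on the log2 scale (adjusted p = 0.00592). The groups overlapped through untreated replicate 3. Dync1li2 was at 259, 235, 256, 324 and 293 CPM in untreated and 236, 244, 249, 222 and 238 CPM in ibudilast rats and did not pass (log2 fold change −0.20, adjusted p = 0.0942). It passed by DESeq2, without untreated replicate 2 or 3 and without the 4 libraries that stood apart. The ratio of these 2 genes did not pass (exact permutation test, adjusted p = 0.133), but did without untreated replicate 3 (−0.40, exact permutation test, adjusted p = 0.0357).

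Of 6 light chain genes 1 fell and 5 did not pass. Dynlt3, a Tctex-type light chain, was at 206, 160.0, 119, 213 and 188 CPM in untreated and 106, 97.8, 145, 62.2 and 132 CPM in ibudilast rats, a fall of 0.71 ± 0.23 (adjusted p = 0.0249). Its groups overlapped, lowest in ibudilast replicate 4, and the call was lost without untreated replicate 1 or 5 or ibudilast replicate 2 (adjusted p from 0.0508 to 0.0590) and with a replicate block (0.0733). Dynlt1, at 8.40 ± 1.10 and 9.63 ± 1.27 CPM, did not pass (adjusted p = 0.227). The LC8 light chain genes Dynll1 and Dynll2, which also serve complexes other than dynein, did not pass either. Dynll1 was at 406, 377, 305, 355 and 406 CPM in untreated and 307, 323, 392, 182 and 356 CPM in ibudilast rats, with ibudilast replicate 4 far below the rest (log2 fold change −0.25, adjusted p = 0.289). Dynll2 was at 640.0, 556, 700.2, 680.1 and 614 CPM in untreated and 513, 602, 646, 742 and 608 CPM in ibudilast rats, with replicate 4 now the highest of its group (log2 fold change −0.04, adjusted p = 0.814). That rat also had the lowest excitatory neuron sum, 1564 CPM, whose part in this was not tested.

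Dynlrb1, the main roadblock light chain, was at 163, 155, 195, 170.4 and 179.6 CPM in untreated and 181, 193, 219, 188 and 212 CPM in ibudilast rats and did not pass (log2 fold change 0.20 ± 0.08, adjusted p = 0.0672). It passed with library size alone, with upper-quartile factors, without untreated replicate 3 and without the 4 libraries that stood apart. The ratio of Dynlrb1 to Dync1h1 rose from −2.26 ± 0.25 to −1.75 ± 0.11 (log2, SD, n = 5, exact permutation test, two-sided, p = 0.0159, adjusted p = 0.0357). The difference of 0.52 stood at 0.47 to 0.62 when single rats were left out. Its call was lost without ibudilast replicate 1, 3, 4 or 5 (exact permutation test, adjusted p = 0.0536 in each).

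**Figure D3:**
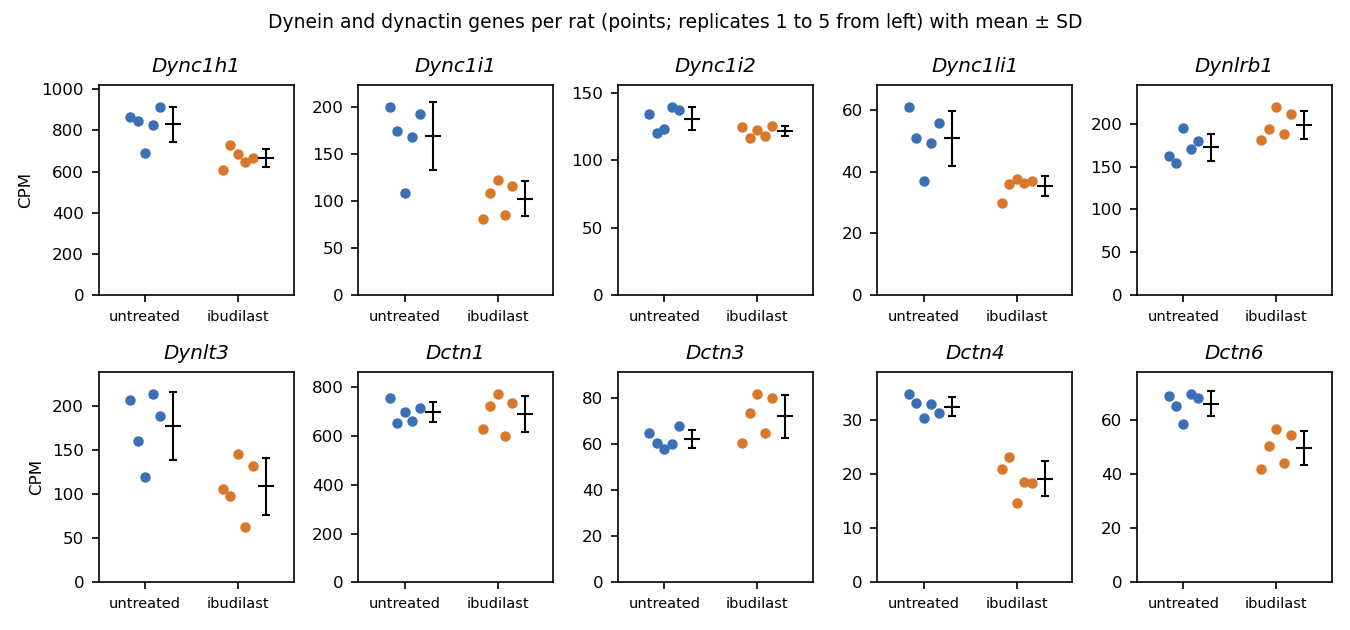
CPM (vertical axis, from 0) of 10 dynein and dynactin genes in each rat, untreated in blue and ibudilast in orange, with the group mean and SD in black. Dctn4 and Dctn6 show no overlap between groups, while in Dync1h1, Dync1i1 and Dync1li1 untreated replicate 3 lies at or within the ibudilast range.

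Dynactin has a projecting arm that grips microtubules and dynein, and a pointed end that helps recruit cargo. The 3 arm genes did not pass, and 2 of the 3 pointed-end genes in the set fell. A further pointed-end gene, Actr10, is outside the set by its symbol and did not pass (log2 fold change −0.20, adjusted p = 0.0862). Dctn1, which encodes the large arm subunit, was at 756, 654, 697, 662 and 716 CPM in untreated and 629.7, 722, 770.5, 598 and 737 CPM in ibudilast rats (log2 fold change −0.01 ± 0.09, adjusted p = 0.937). Dctn2, dynamitin, was at 226, 207, 193, 209 and 221 CPM in untreated and 195, 216, 233, 201 and 231 CPM in ibudilast rats (0.03 ± 0.08, adjusted p = 0.796). In both genes the group ranges overlapped widely, and the sign of the difference depended on the processing or on single rats.

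Dctn4 had the larger fall at the pointed end. It was at 34.8, 33.1, 30.3, 32.9 and 31.4 CPM in untreated and 21.0, 23.3, 14.7, 18.7 and 18.4 CPM in ibudilast rats, or 59.1% of the untreated mean, without overlap (log2 fold change −0.76 ± 0.11, adjusted p = 0.000369). Dctn6 was at 69.1, 65.4, 58.6, 69.6 and 68.3 CPM in untreated and 42.1, 50.6, 56.9, 44.4 and 54.7 CPM in ibudilast rats, also without overlap (−0.41 ± 0.09, adjusted p = 0.00466). Both calls held in all 21 alternatives. Dctn5, the third pointed-end gene of the set, was at 74.2, 66.5, 56.5, 66.3 and 73.0 CPM in untreated and 57.9, 64.5, 76.8, 58.2 and 69.5 CPM in ibudilast rats. It did not pass (−0.04, adjusted p = 0.761), with a sign that turned under library size alone.

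Dctn3, the small arm subunit, was at 65.1, 60.8, 57.9, 60.1 and 68.0 CPM in untreated and 60.7, 73.6, 81.8, 64.9 and 80.0 CPM in ibudilast rats and did not pass (log2 fold change 0.21, adjusted p = 0.0843), but passed with library size alone, with upper-quartile factors, without ibudilast replicate 1 and without the 4 libraries that stood apart. Set against Dctn1 of the same library, it was higher in every ibudilast rat than in any untreated rat: the log2 ratio went from −3.47 ± 0.08 to −3.25 ± 0.07 (SD, n = 5, exact permutation test, two-sided, p = 0.00794, adjusted p = 0.0357). The ratio of Dctn1 to Dctn2 differed by −0.04 (exact permutation test, adjusted p = 0.482), and that of Dynll1 to Dynll2 by −0.24 (exact permutation test, adjusted p = 0.516). In all, 4 of the 9 ratios passed.

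**Figure D4:**
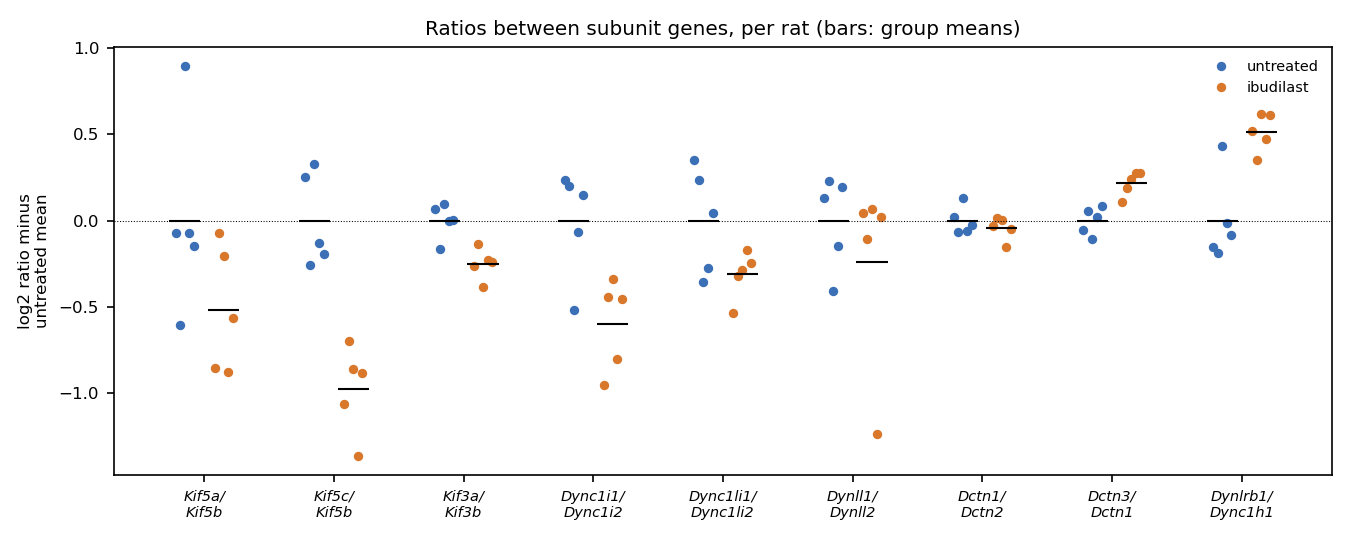
Log2 ratios between 9 pairs of motor genes within each library, minus the untreated mean of the pair (vertical axis), with untreated rats in blue, ibudilast rats in orange and group means as bars. The groups do not overlap for Kif5c to Kif5b and Dctn3 to Dctn1.

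The motor genes of dynein-2 and motile cilia in the set (Dync2h1, Dync2li1, Dynlrb2, Kif9, Kif19 and Kif27) did not pass, and 1 rat stood out in 5 of them. Dynein-2 carries material from the tip of the cilium back to its base, with Dync2h1 as its heavy chain. Dync2h1 was at 32.4, 45.1, 29.2, 34.9 and 33.4 CPM in untreated and 59.9, 41.7, 39.0, 37.5 and 40.0 CPM in ibudilast rats and did not pass (log2 fold change 0.32, adjusted p = 0.108). It passed without untreated replicate 2 and without the 4 libraries that stood apart. The intermediate chain genes of dynein-2, Wdr34 and Wdr60, are outside the set by their symbols and rose by 0.75 and 0.56 on the log2 scale (adjusted p = 0.000569 and 0.00440), with no overlap between groups in either. Dync2li1, the dynein-2 light intermediate chain, was at 21.5 ± 3.16 and 24.4 ± 2.73 CPM (adjusted p = 0.227). Dynlrb2, a roadblock chain of ciliated cells, was at 1.62, 6.90, 1.31, 6.92 and 2.73 CPM in untreated and 18.9, 6.19, 3.14, 1.65 and 4.05 CPM in ibudilast rats (log2 fold change 0.80, adjusted p = 0.366). Kif9, a kinesin of motile cilia, was at 2.46, 5.42, 3.37, 3.40 and 2.96 CPM in untreated and 11.9, 4.88, 4.32, 2.66 and 3.88 CPM in ibudilast rats. It passed only when the 4 libraries that stood apart were left out (log2 fold change 0.57, adjusted p = 0.0318).

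Ibudilast replicate 1 held the highest value of Dync2h1, Dynlrb2, Kif9, Kif19 and Kif27 among all 10 rats. It was also the highest for Dync2li1, but barely (27.2 CPM, beside 27.1 CPM in ibudilast replicate 3). Untreated replicate 2 was the highest of its group for Dync2h1, Dync2li1, Kif9 and Kif27. Kif19, which trims ciliary tips, was at 3.49, 6.21, 6.24, 8.20 and 6.65 CPM in untreated and 17.2, 9.58, 6.83, 9.04 and 6.77 CPM in ibudilast rats (log2 fold change 0.68, adjusted p = 0.0762). Kif27, a motile-cilia kinesin, was at 11.5 ± 3.66 and 12.1 ± 6.37 CPM (adjusted p = 0.884). The 12 cilia genes in the table, axonemal dyneins among them, summed to 325 CPM in ibudilast replicate 1, 151 CPM in untreated replicate 2 and 49.3 to 125 CPM elsewhere. These are also the 2 libraries rich in choroid plexus markers. Of 11 cilia genes tested 1 rose, Ccdc39, and 10 did not pass. None of the listed genes was at 0 in all rats, and their part in the values of these motors was not tested. Without ibudilast replicate 1 the log2 fold change of Dynlrb2 went from 0.80 to −0.05 and that of Kif27 from 0.07 to −0.29.

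**Figure D5:**
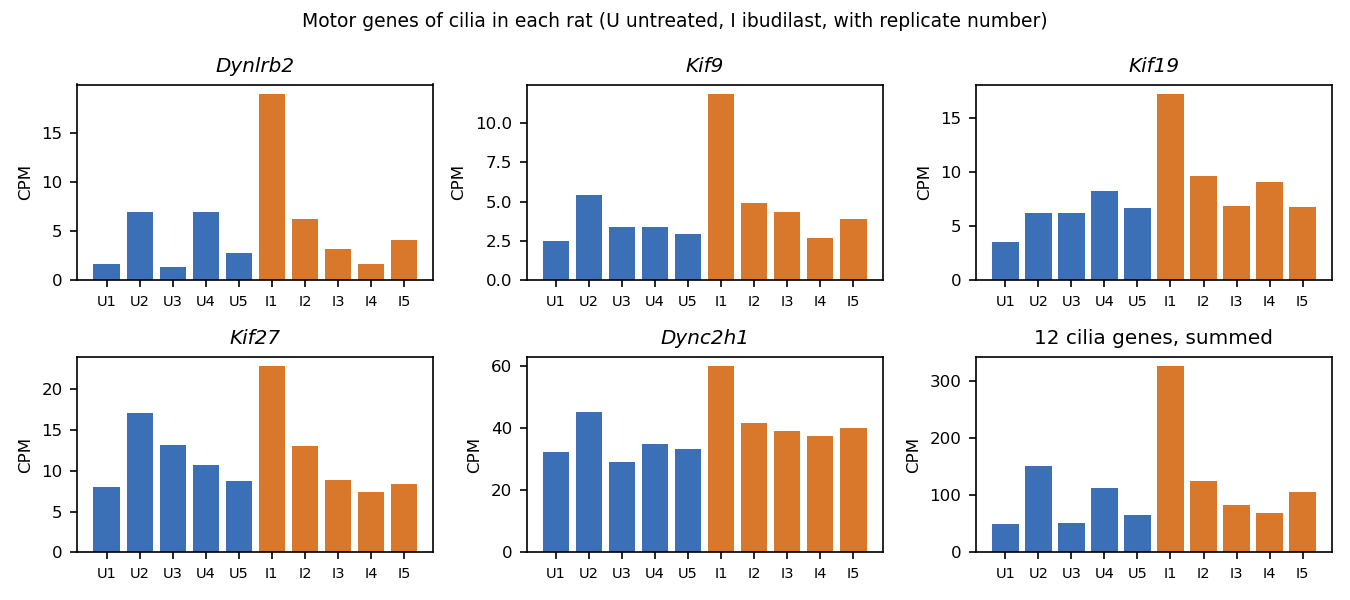
CPM (vertical axis, from 0) of 5 motor genes of cilia and the sum of 12 cilia genes in each rat (horizontal axis, U untreated and I ibudilast with the replicate number). Ibudilast replicate 1 is the highest bar in every panel.

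The promoters of Kif3a and Kif9 are shown because both motors work in cilia and both windows hold 2 matches to the X-box half-site. Capitals mark the same motifs as above. Kif3a lies at chr10:38226520-38226819 and Kif9 at chr8:119337849-119338148, both on the plus strand of GRCr8.
Kif3a: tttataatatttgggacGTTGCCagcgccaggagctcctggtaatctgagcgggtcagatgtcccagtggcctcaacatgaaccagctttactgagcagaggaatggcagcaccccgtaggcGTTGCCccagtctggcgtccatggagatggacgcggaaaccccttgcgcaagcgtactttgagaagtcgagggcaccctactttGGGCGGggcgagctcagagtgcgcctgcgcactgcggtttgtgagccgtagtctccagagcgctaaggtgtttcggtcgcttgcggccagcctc
Kif9: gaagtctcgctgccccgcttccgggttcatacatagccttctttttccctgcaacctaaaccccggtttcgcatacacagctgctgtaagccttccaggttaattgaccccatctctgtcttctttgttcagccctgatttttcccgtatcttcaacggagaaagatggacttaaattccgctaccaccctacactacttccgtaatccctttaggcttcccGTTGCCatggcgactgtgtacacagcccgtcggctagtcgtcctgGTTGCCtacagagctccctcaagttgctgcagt
The half-site was in 10 of the 41 members (24.4%) and in 12.8% of the windows of tested genes, counted in unlike units as above. Dync2li1 and Kif27 were also among the 10, and Dynlrb2 was not. Of the 2 genes shown Kif3a fell, while Kif9 did not pass and was highest in the rat with the highest cilia sum.

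Adaptors and regulators couple kinesins to cargo. Of 26 listed genes in the table, all tested, 3 rose, 12 fell and 11 did not pass, so 57.7% changed beside 47.1% of all genes, of which 24.3% rose and 22.8% fell. The median log2 fold change of the list was −0.34. Kidins220, a scaffold of neurotrophin receptors that binds kinesin light chains, fell from 473 ± 40.5 to 325 ± 19.2 CPM (adjusted p = 0.000448). Clstn3, a calsyntenin, fell by 0.80 ± 0.13 on the log2 scale, and Apba1, an adaptor between vesicles and Kif17, by 0.97 ± 0.16. The Miro genes, which tie mitochondria to their motors, parted: Rhot2 rose from 54.9 ± 11.9 to 98.1 ± 4.90 CPM (0.84 in log2, adjusted p = 0.000404), while Rhot1 fell from 68.5 ± 7.05 to 53.2 ± 3.15 CPM (−0.36, adjusted p = 0.00443). Their partners Trak1 and Trak2 did not pass (adjusted p = 0.638 and 0.428), nor did Htt (adjusted p = 0.768). Beyond the 4 genes with the smallest p in a list, genes of these lists were chosen by role after their values were seen. Arl8b and Arl8a, the GTPases that load lysosomes and synaptic vesicle precursors onto kinesins, fell by 0.80 and 0.32 on the log2 scale.

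Among dynein regulators and activating adaptors 5 of 28 rose, 8 fell and 15 did not pass, with a median of −0.09. The share that changed, 46.4%, was close to the 47.1% of all genes. Pafah1b1, which encodes LIS1, the regulator that frees dynein from its inhibited form, fell from 541 ± 77.7 to 305 ± 21.1 CPM (−0.83 ± 0.11, adjusted p = 0.000194), and its partners Nde1 and Ndel1 did not pass (adjusted p = 0.265 and 0.217). Hook2 rose from 8.89 ± 3.73 to 21.2 ± 0.893 CPM (adjusted p = 0.00104), while Hook1 and Hook3 fell by 0.33 and 0.31 on the log2 scale. Bicd1 and Bicd2, adaptors of Rab6 vesicles, fell by 0.65 and 0.33. Clip1, a plus-end protein that meets dynactin, fell from 79.4 ± 8.32 to 57.4 ± 3.58 CPM (adjusted p = 0.00117). Wdr34 and Wdr60 were 2 of the 5 that rose. Actr1a and Actr1b, which build the actin-like filament of dynactin, did not pass (adjusted p = 0.808 and 0.567), nor did Actr10, Capza1 and Capzb (adjusted p = 0.0862, 0.0514 and 0.163). Capza2, which encodes a capping protein subunit, fell from 292 ± 59.4 to 156 ± 35.3 CPM without overlap (−0.91 ± 0.19 in log2, adjusted p = 0.00320).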

How the data were processed

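Left hippocampal RNA of 5 untreated and 5 ibudilast rats was measured in 1 library per rat, made with a stranded mRNA kit per the labels. The authors deposited expected counts by gene symbol, and a normalized signal in which, from its values, counts are divided by scaled library sizes. Tools listed in the submitters' processing notes, with no roles, are RSEM 1.2.15, Bowtie2 2.1.0, edgeR and bcl2fastq, and the build is rn6.

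Expected counts were rounded (12% of values were not whole) and tested with edgeR 4.0.16 in R 4.3.3: TMM factors, filterByExpr, the robust quasi-likelihood F test and Benjamini-Hochberg adjustment over 12355 genes. Alternatives used DESeq2 1.42.0, limma 3.58.1, other scalings and filters, a replicate block, each rat left out and the 4 libraries that stood apart left out. Those 4 are replicates 2 and 3 of the untreated and 1 and 4 of the ibudilast group. The authors' signal, plus a pseudocount of 1, entered limma. Whole reads were also recovered from it, in 100% of values within 0.01 reads, and edgeR's test of these reads, an alternative chosen after seeing the data, called 5817 genes. Ratios used log2(CPM + 0.5). The test was also run on simulated data in which few genes changed, unlike here. That run does not bear on the scaling of these data.

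Nothing says how rats were housed or drawn, so p-values measure only the spread between these rats. Members were matched by symbol, not by value, but the rule and lists were set with earlier results of these data known. Values per rat are given for subunits chosen by role and for the 5 largest rises and falls with a mean of at least 1 CPM. Outside that rule they are also given for Kif3c, Kif26b, Kif9, Kif19 and Dynlrb2. A planned description by protein length, and ratios with genes not analysed here, were not run.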

Additional observations from a re-analysis of the deposited data

Results flagged for a closer look

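In 15 of 100 groups of 5 rats 1 rat stood apart by Dixon's test at the 95% level, by a wide gap to the nearest other rat against the range of its group. The level of the test, about 1 in 20 groups, holds for independent groups. Here all 100 groups come from the same 10 rats, and genes outside the set were not put through the test. The count is therefore not read as an excess. Of these values 5 were in untreated replicate 3, 5 in ibudilast replicate 1, 3 in ibudilast replicate 4, and 1 each in untreated replicate 2 and ibudilast replicate 2.

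Untreated replicate 3 was high for Kifc2 (665 CPM, others 310.2 to 382), Kif26a (25.8 CPM, others 13.5 to 15.4) and Kif15 (1.44 CPM, others 0.455 to 0.705). The same rat was low for Kif3b (74.0 CPM, others 91.4 to 93.6) and Kif26b (8.49 CPM, others 17.3 to 19.4). Ibudilast replicate 1 was high for the ciliary motor genes Dync2h1 (59.9 CPM, others 37.5 to 41.7), Dynlrb2 (18.9 CPM, others 1.65 to 6.19), Kif19 (17.2 CPM, others 6.77 to 9.58) and Kif9 (11.9 CPM, others 2.66 to 4.88). It was low for Dync1li1 (29.8 CPM, others 36.0 to 37.6).

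Ibudilast replicate 4 was low for Kif2a (70.8 CPM, others 88.4 to 93.8) and high for Kifc3 (123 CPM, others 98.8 to 103) and Klc4 (63.7 CPM, others 46.5 to 50.8). Klc3 was high in untreated replicate 2 (3.42 CPM, others 0.625 to 1.15), and Kif23 in ibudilast replicate 2 (2.14 CPM, others 0.837 to 0.945).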

How the results depend on the processing

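Of the 19 motor genes called, 14 kept their call and direction in all 21 alternatives. The other 5 (Dync1h1, Dynlt3, Kif13a, Kif16b and Kifc2) lost it in at least 1, none turned direction, and 13 genes not called passed in at least 1. No scaling moved the median of all genes by more than 0.07 on the log2 scale. With a replicate block 4726 of all genes, 11 kinesin, 2 dynein (both lower) and 2 dynactin genes changed. The labels only number the rats: deviations of the 5 same-numbered pairs had correlations of −0.36 to 0.45, and 0 of 5 rats matched their own number best. With library size alone 1 dynein and 1 dynactin gene rose, and 5 kinesin adaptors rose. With upper-quartile factors 1 dynein and 1 dynactin gene rose. Without the 4 libraries that stood apart 8 dynein genes changed, 2 of them higher, and 1 dynactin gene and 5 kinesin adaptors rose.

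Leaving out single rats gave 2 to 7 changed dynein genes (0 to 1 higher, 2 to 6 lower), 0 to 1 dynactin genes higher and 2 to 5 kinesin adaptors higher. The ratios ranged from −0.29 to −0.22 for Kif3a to Kif3b, −0.73 to −0.51 for Dync1i1 to Dync1i2, −0.40 to −0.22 for Dync1li1 to Dync1li2 and 0.47 to 0.62 for Dynlrb1 to Dync1h1. Without the 4 libraries the ratios were −0.79 for Kif5c to Kif5b, −0.275 for Kif3a to Kif3b, 0.22 for Dctn3 to Dctn1, 0.61 for Dynlrb1 to Dync1h1 and 0.0130 for Dctn1 to Dctn2. With 3 rats a group, no ratio can then pass.

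The sign turned only among results that were not called, and the cause was not tested. With library size alone, log2 fold changes were 0.0544 for Dctn1, 0.0215 for Dctn5 and 0.0418 for Dynll2, and with upper-quartile factors 0.0322, 0.00292 and 0.0110. Kif27 was at −0.0110 with limma-trend, −0.00625 with limma-voom and −0.0244 with a replicate block, and Dctn2 at −0.00272 with no low-count filter. Without the 4 libraries Dctn1 was at 0.0635, Kif13b at −0.0562 and Kif5b at −0.0434. With single rats left out the ranges were −0.0570 to 0.0204 for Dctn1, −0.0283 to 0.0606 for Dctn2, −0.132 to 0.0252 for Dynll2, −0.0524 to 1.10 for Dynlrb2, −0.294 to 0.235 for Kif27 and −0.00542 to 0.0917 for Kif5b. The ratio of Dynll1 to Dynll2 ranged from −0.344 to 0.00672. A planned description by protein length and 3 ratios with genes not analysed here were not run.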
